A study of Mus musculus with 24 samples.

Results

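Tumours of MMTV-PyMT mice, in which the MMTV promoter drives the polyoma middle T oncogene in mammary epithelium, hold macrophages in numbers that vary from tumour to tumour. The 24 tumour libraries of the series were split by Csf1r, the receptor of colony-stimulating factor 1 that marks the macrophage lineage. The classes were chosen by the Csf1r level of each library in CPM, its reads scaled to the total of reads counted in that library. Of the 12 libraries labelled KO, the 4 with the highest Csf1r and the 4 with the lowest were taken, and likewise of the 12 labelled WT. This gave 8 Csf1r-high tumours, 8 Csf1r-low tumours and 8 tumours in neither class.

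The groups are 4 Csf1r-high and 4 Csf1r-low tumours labelled KO (genotype "SHP KO", NR0B2-/- PyMT+) and 4 Csf1r-high and 4 Csf1r-low tumours labelled WT (NR0B2+/+ PyMT+). SHP, the product of Nr0b2, is a nuclear receptor that lacks a DNA-binding domain and represses other nuclear receptors. Every mouse carried the PyMT transgene, the labels name no agent, every tumour was collected at 2000 mm3, and RNA came from whole frozen tumours after homogenisation, so cancer cells, stroma and blood are all in each library. Ages are not stated, and nothing says whether each tumour came from its own mouse, so a p-value here reflects how far these tumours differ among themselves, which may be technical.

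Macrophages arise from blood monocytes or from cells seeded into the tissue before birth, and they depend on signals through Csf1r, which binds the cytokines Csf1 and Il34. In mammary tumours they take up debris, make complement and chemokines, present antigen on MHC class II and remodel the matrix. Csf1 and Ccl2, the ligand of the monocyte receptor Ccr2, are known to draw and maintain them in this model.

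The libraries held between 18789250 and 38022182 counted reads. As a check of the labels, Nr0b2 had 3 to 71 reads in the 12 libraries labelled KO, whereas 11 of the 12 libraries labelled WT had none and WT 24 had 1. This order goes against the labels, so the 2 sets are called the libraries labelled KO and the libraries labelled WT throughout. Of the tumours in the comparison, 2 libraries labelled KO stood apart from the others. KO 11, which is Csf1r-high, held the highest level of many immune, fat and muscle genes, and KO 12, which is Csf1r-low, had a TMM scaling factor of 0.845, while the other 15 libraries had factors of 0.926 to 1.05. For gene lists with a call, the calls are therefore also given without these 2 libraries.

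Among libraries labelled KO, the Csf1r-high tumours had 157, 156, 122 and 114 CPM of Csf1r, against 69.5, 67.7, 64.1 and 36.6 CPM in the Csf1r-low tumours. Among libraries labelled WT, the Csf1r-high tumours had 131, 130.2, 108 and 107 CPM, against 72.1, 69.9, 59.1 and 40.9 CPM in the Csf1r-low tumours. The split chose these values, so they are given without a test. Of the tumours left out, KO 3, at 108 CPM, and WT 22, at 90.1 CPM, came next below the Csf1r-high tumours of their label, and KO 9, at 77.7 CPM, and WT 17, at 78.3 CPM, next above the Csf1r-low tumours. WT 22 lay about as far from one class as from the other. In the fit described below the classes differed in Csf1r by 1.08 on the log2 scale, or 2.11-fold.

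The 2 other markers of the class name gave different answers. Adgre1 (chr17:57665581-57790529, GRCm39), which encodes the F4/80 surface protein of mouse macrophages, had 49.1, 55.9 and 63.7 CPM in Csf1r-high tumours, against 11.2, 28.9 and 37.2 CPM in Csf1r-low tumours. These are the lowest, the median and the highest of the 8 tumours of a class, as in all such triplets below, and the classes did not overlap (log2 fold change 1.02 ± 0.17 SE). Cd68 (chr11:69555039-69556996), a glycoprotein of lysosomes in macrophages and other phagocytes, had 26.8, 47.9 and 78.9 CPM in Csf1r-high tumours, against 18.2, 32.3 and 46.2 CPM in Csf1r-low tumours. The ranges of Cd68 overlapped, with a log2 fold change of 0.53 ± 0.23. Had the tumours been ranked by Adgre1, KO 4, KO 6 and WT 19 would have been in neither class. Had they been ranked by Cd68, KO 12 would have been among the 4 highest libraries labelled KO and WT 15 among the 4 lowest labelled WT. The count of genes that differ between the classes, 806 by Csf1r as given below, was 455 with the ranking by Adgre1 and 2 with that by Cd68. The tumours are therefore called Csf1r-high and Csf1r-low, and not rich or poor in macrophages. In RNA of a whole tumour, fewer macrophages and less RNA per macrophage cannot be told apart.

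**Figure D1:**
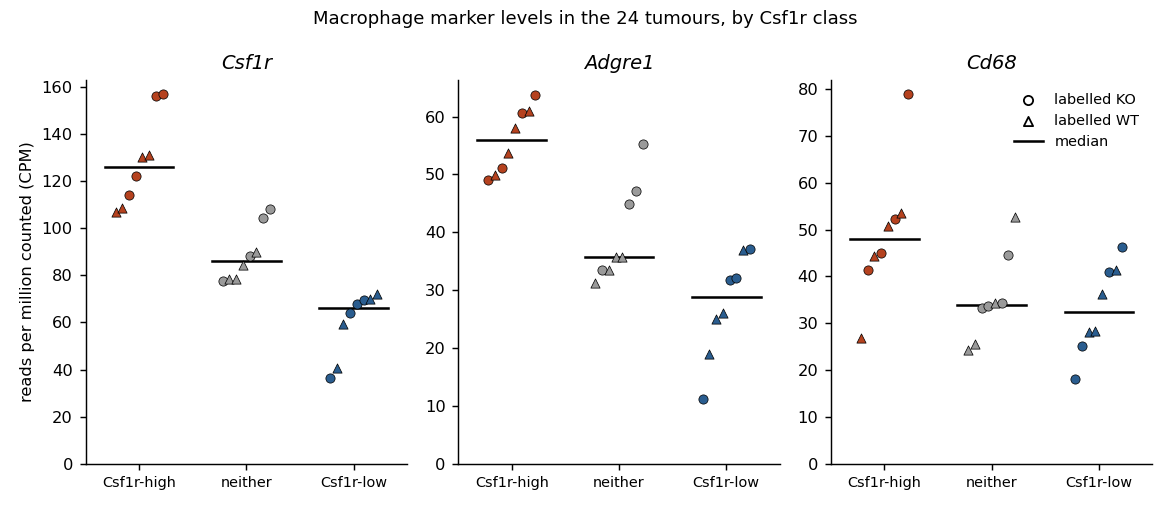
CPM of Csf1r, Adgre1 and Cd68 in each of the 24 tumours by Csf1r class; circles are libraries labelled KO, triangles libraries labelled WT, and bars medians. Csf1r and Adgre1 of the 8 Csf1r-high tumours lie above those of the 8 Csf1r-low tumours, whereas Cd68 overlaps, with 26.8 CPM at the bottom of the Csf1r-high class and 46.2 CPM at the top of the Csf1r-low class.

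Across the transcriptome, 806 of 16935 genes tested differed between the classes, or 4.76% (edgeR quasi-likelihood test with the label as a block, Benjamini-Hochberg adjusted p under 0.05). Of these, 640 genes (3.78% of those tested) were higher in Csf1r-high tumours and 166 (0.98%) were lower. The classes were cut from Csf1r, so a call says that a gene varied with Csf1r over these 16 tumours. The rises were larger than the falls, with a median log2 fold change of 1.13 for the genes that rose and -0.52 for those that fell, while all genes tested had a median of -0.012. The CPM ranges of the classes did not overlap for 156 genes higher in Csf1r-high tumours (0.921%) and 27 lower (0.159%). The count of 806 rested on some tumours more than on others: it was 418 when KO 6 was left out, 342 when KO 11 was, 412 when WT 16 was and 261 when WT 20 was. Without KO 11 and KO 12 it was 379, of which 75 were lower.

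Macrophage genes moved with Csf1r as a set, but unevenly. Of the 21 pan-macrophage genes tested beside Csf1r, 15 were called higher, against 3.78% of all genes, all 21 had a positive log2 fold change, against 48.3% of all genes, and for 9 the classes did not overlap, against 0.921% of all genes. Their median log2 fold change was 0.69, less than the 1.08 of Csf1r itself. Since this list checks the name of the classes, it is described without p-values. Counts of this and every other list cover its genes that passed the filter on low counts, and each is to be read against the 3.78% of all genes called higher and 0.98% called lower. Without KO 11 and KO 12, 13 were called.

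C1qa, which encodes a chain of the complement starter C1q and is a marker of tissue macrophages, had 169, 209 and 292 CPM in Csf1r-high tumours, against 86.1, 118 and 167 CPM in Csf1r-low tumours. C1qb, for a second chain, had 168, 209 and 268 CPM in Csf1r-high tumours, against 91.4, 123 and 164 CPM in Csf1r-low tumours. C1qc, for the third chain, had 152, 188 and 253 CPM in Csf1r-high tumours, against 77.2, 104 and 146 CPM in Csf1r-low tumours. The lowest Csf1r-high tumour was above the highest Csf1r-low tumour for all 3 chains, with log2 fold changes of 0.74, 0.69 and 0.76. Fcgr3, a low-affinity receptor for immunoglobulin G, had 40.4, 49.1 and 65.6 CPM in Csf1r-high tumours, against 19, 28.7 and 37.1 CPM in Csf1r-low tumours, again without overlap. Laptm5, a lysosomal membrane protein of blood cells, had 71.2, 88.1 and 149 CPM in Csf1r-high tumours, against 37.4, 43.9 and 66.3 CPM in Csf1r-low tumours, also without overlap. Other members separated the classes less. Lyz2, lysozyme of macrophages and neutrophils, had 397, 602 and 987 CPM in Csf1r-high tumours, against 153, 329.8 and 611 CPM in Csf1r-low tumours. Ctss, a protease that trims the invariant chain during antigen presentation, had 293, 357 and 416 CPM in Csf1r-high tumours, against 131, 217 and 315 CPM in Csf1r-low tumours. In both of these the classes overlapped, with log2 fold changes of 0.92 and 0.68. The smallest difference of the list was that of Cd14, the co-receptor for bacterial lipopolysaccharide, at 159.7, 236 and 376 CPM in Csf1r-high tumours, against 143, 199 and 319 CPM in Csf1r-low tumours (log2 fold change 0.21 ± 0.20 SE).

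The promoters of 3 of these genes are shown because macrophage genes are known to be controlled by Spi1 (PU.1), whose site has the core GAGGAA. They are the most abundant pan-macrophage genes with a promoter in the table used that hold this core on either strand in the window from 250 bases before to 50 bases after the start (RefSeq, GRCm38.p6, printed 5′ to 3′ on the gene's strand). The capitals mark GAGGAA or its complement TTCCTC. Ctss lies at chr3:95526536-95526835 (+ strand), C1qb at chr4:136886151-136886450 (- strand) and C1qc at chr4:136892865-136893164 (- strand).
Ctss: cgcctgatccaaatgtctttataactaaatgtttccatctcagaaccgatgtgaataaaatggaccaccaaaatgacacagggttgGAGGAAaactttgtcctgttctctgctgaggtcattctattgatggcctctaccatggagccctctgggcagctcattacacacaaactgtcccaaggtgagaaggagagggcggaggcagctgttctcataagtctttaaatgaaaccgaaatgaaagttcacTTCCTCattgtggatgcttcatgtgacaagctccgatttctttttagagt
C1qb: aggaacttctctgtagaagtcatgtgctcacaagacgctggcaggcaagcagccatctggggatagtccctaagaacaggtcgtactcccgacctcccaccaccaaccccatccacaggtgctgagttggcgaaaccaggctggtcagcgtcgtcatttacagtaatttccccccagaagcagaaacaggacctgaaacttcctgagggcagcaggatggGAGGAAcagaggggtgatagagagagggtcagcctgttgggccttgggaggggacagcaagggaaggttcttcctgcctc
C1qc: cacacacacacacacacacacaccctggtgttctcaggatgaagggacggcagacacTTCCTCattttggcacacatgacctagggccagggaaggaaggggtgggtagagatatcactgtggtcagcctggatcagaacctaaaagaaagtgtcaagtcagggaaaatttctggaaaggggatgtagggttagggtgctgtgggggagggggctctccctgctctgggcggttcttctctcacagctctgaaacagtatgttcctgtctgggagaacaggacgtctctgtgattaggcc
The core GAGGAA, searched on both strands, stood in the window of 10 of the 16 pan-macrophage genes with a promoter in the table (62.5%). It stood in 42.7% of the 485 matched genes that were higher in Csf1r-high tumours, in 25% of the 140 matched genes that were lower, in 27.4% of 12797 matched tested genes and in 28.3% of all 27018 promoters of the table. The AP-1 site TGACTCA, which does not overlap GAGGAA in its letters and was also searched on both strands, stood in 5.77%, 6.43%, 3.93% and 5.17% of the higher, lower, tested and all genes. A match is a run of letters, and binding was not measured.

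Genes that mark the state of tumour macrophages split. Mrc1, the mannose receptor, Stab1, a scavenger receptor, and Maf, a transcription factor of resident macrophages, rose with Csf1r, whereas Spp1, Arg1 and Nos2 did not pass the test. In all, 7 of 22 genes of the list were higher and none lower, with a median log2 fold change of 0.97. Mrc1 had 52.6, 69.9 and 159 CPM in Csf1r-high tumours, against 15, 25.3 and 62.0 CPM in Csf1r-low tumours (log2 fold change 1.38 ± 0.21, adjusted p = 0.00418). Stab1 had 42.3, 54.8 and 71.6 CPM in Csf1r-high tumours, against 19.6, 27.9 and 41.2 CPM in Csf1r-low tumours (log2 fold change 0.94 ± 0.15, adjusted p = 0.00504). Maf had 16.3, 21.5 and 52.8 CPM in Csf1r-high tumours, against 5.75, 10.9 and 13.7 CPM in Csf1r-low tumours (log2 fold change 1.20 ± 0.22, adjusted p = 0.0102). The classes did not overlap for Stab1 and Maf, and overlapped for Mrc1 only through KO 2, the highest Csf1r-low tumour. Apoe, the apolipoprotein E that macrophages secrete with cholesterol, had 942, 1404 and 1742 CPM in Csf1r-high tumours, against 339, 681 and 1226 CPM in Csf1r-low tumours (log2 fold change 0.99 ± 0.22, adjusted p = 0.0200). The classes overlapped for Apoe, the highest Csf1r-low tumour being above the lowest Csf1r-high tumour. Spp1, osteopontin, varied widely within each class, with 276, 1653 and 8698 CPM in Csf1r-high tumours, against 841, 1578 and 4112 CPM in Csf1r-low tumours (log2 fold change 0.11 ± 0.55, adjusted p = 0.932). Arg1, arginase 1, had 45.4, 102 and 204 CPM in Csf1r-high tumours, against 23.2, 158 and 327 CPM in Csf1r-low tumours (log2 fold change -0.28 ± 0.38, adjusted p = 0.715). Nos2, the inducible nitric oxide synthase, had 0.632, 0.845 and 1.88 CPM in Csf1r-high tumours, against 0.397, 1.62 and 7.5 CPM in Csf1r-low tumours (log2 fold change -1.14 ± 0.55, adjusted p = 0.239). Arg1 and Nos2 are textbook markers of opposed macrophage states, and both spread more widely among Csf1r-low tumours. The list had 4 calls without KO 11 and KO 12, and 4 when WT 20 was left out.

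Monocyte genes rose in part, with 3 of 10 tested higher and none lower. Ccr2, the receptor through which monocytes leave the blood towards Ccl2, had 35, 48.4 and 101 CPM in Csf1r-high tumours, against 5.91, 22.5 and 45.3 CPM in Csf1r-low tumours (log2 fold change 1.19 ± 0.31, adjusted p = 0.0384). Ly6c2, the surface antigen of inflammatory monocytes, had 0.981, 1.91 and 11.7 CPM in Csf1r-high tumours, against 0.392, 0.579 and 1.27 CPM in Csf1r-low tumours (log2 fold change 2.04 ± 0.47, adjusted p = 0.0247). F13a1, a transglutaminase of monocytes and some macrophages, had 61.7, 75.0 and 200.2 CPM in Csf1r-high tumours, against 13.1, 32.8 and 70.6 CPM in Csf1r-low tumours (log2 fold change 1.37 ± 0.28, adjusted p = 0.0163). All 3 had their highest value in KO 11. The calls numbered 2 without KO 11 and KO 12, and 1 when KO 6 or WT 20 was left out. Neutrophil genes gave 1 call among 6 tested, Csf3r, the receptor of granulocyte colony-stimulating factor, with 4.19, 5.98 and 6.72 CPM in Csf1r-high tumours, against 2.08, 2.83 and 4.44 CPM in Csf1r-low tumours (log2 fold change 0.88 ± 0.17, adjusted p = 0.0117). S100a8, an abundant protein of neutrophils, had 6.13, 14.5 and 30.3 CPM in Csf1r-high tumours, against 5.84, 8.98 and 300.2 CPM in Csf1r-low tumours (log2 fold change -0.91 ± 0.77, adjusted p = 0.520). The top value was that of KO 12. Without KO 11 and KO 12 the neutrophil list had 1 call.

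The ligands of Csf1r did not move together. Il34 was higher in Csf1r-high tumours, with 4.15, 5.85 and 8.95 CPM in Csf1r-high tumours, against 2.47, 3.02 and 4.83 CPM in Csf1r-low tumours (log2 fold change 0.91 ± 0.19, adjusted p = 0.0190). Csf1 had 61.0, 66 and 73.8 CPM in Csf1r-high tumours, against 33.4, 54.1 and 85.7 CPM in Csf1r-low tumours, and the Csf1r-high tumours all lay inside the range of the Csf1r-low tumours (log2 fold change 0.17 ± 0.17, adjusted p = 0.602). Of 15 tested genes of ligands, sister receptors and signalling proteins, 5 were higher and none lower (median 0.39). Inpp5d, the lipid phosphatase SHIP1 that restrains signals from Csf1r, had 24.4, 30.7 and 40.7 CPM in Csf1r-high tumours, against 9.31, 14.2 and 20.3 CPM in Csf1r-low tumours (log2 fold change 0.95 ± 0.15, adjusted p = 0.00445). Csf2rb, the common beta chain of the receptors for GM-CSF and interleukins 3 and 5, had 13.8, 18.1 and 34.4 CPM in Csf1r-high tumours, against 7.80, 11.5 and 14.1 CPM in Csf1r-low tumours (log2 fold change 0.89 ± 0.18, adjusted p = 0.0163). Csf2rb2, the interleukin 3 beta chain found in mice, was also called, with a log2 fold change of 0.76. Csf2rb and Csf2rb2 are near copies of each other, and how reads were split between them is uncertain. Without KO 11 and KO 12 there were 5 calls, and 3 when WT 20 was left out.

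Complement genes were largely higher, with 12 of 18 called and none lower (median 0.79). The C1q chains among them are also in the macrophage list. C3, the central complement component, had 109, 184 and 553 CPM in Csf1r-high tumours, against 45.6, 77.2 and 156 CPM in Csf1r-low tumours (log2 fold change 1.22 ± 0.29, adjusted p = 0.0271). C1ra, the protease of the C1 complex, had 14.9, 20.1 and 41.5 CPM in Csf1r-high tumours, against 6.28, 9.75 and 14.2 CPM in Csf1r-low tumours (log2 fold change 1.15 ± 0.19, adjusted p = 0.00555). C3ar1, the receptor of the fragment C3a, had 29.6, 33.7 and 48.3 CPM in Csf1r-high tumours, against 16.1, 18.6 and 28.9 CPM in Csf1r-low tumours (log2 fold change 0.80 ± 0.12, adjusted p = 0.00418). C3 overlapped between the classes and reached its highest level in KO 11. Serping1, the inhibitor of C1 and outside the list, had 43.6, 67.1 and 143 CPM in Csf1r-high tumours, against 18.1, 23.9 and 38.6 CPM in Csf1r-low tumours (log2 fold change 1.497 ± 0.20, adjusted p = 0.00287). Classes did not overlap for C1ra, C3ar1 and Serping1. Without KO 11 and KO 12 the list had 10 calls.

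Receptors for antibodies and microbial patterns rose as well, in 10 of 18 genes (median 0.76), with 11 without KO 11 and KO 12. Fcgr2b, the inhibitory receptor for immunoglobulin G, had 33.2, 42.0 and 59.9 CPM in Csf1r-high tumours, against 16, 22.5 and 33.5 CPM in Csf1r-low tumours (log2 fold change 0.98 ± 0.13, adjusted p = 0.00287). Tlr8, an endosomal sensor of single-stranded RNA, had 8.57, 14.5 and 18.6 CPM in Csf1r-high tumours, against 2.24, 5.19 and 7.94 CPM in Csf1r-low tumours (log2 fold change 1.29 ± 0.21, adjusted p = 0.00555). Tlr8 separated the classes without overlap, and Fcgr2b nearly so. Clec4a1, a C-type lectin receptor of myeloid cells, had 7.40, 9.48 and 15.2 CPM in Csf1r-high tumours, against 1.92, 3.21 and 6.14 CPM in Csf1r-low tumours (log2 fold change 1.46 ± 0.19, adjusted p = 0.00287). Rgl1, an effector of Ras-like GTPases, had 19.4, 23.3 and 40.9 CPM in Csf1r-high tumours, against 9.06, 11.7 and 15.5 CPM in Csf1r-low tumours (log2 fold change 1.03 ± 0.14, adjusted p = 0.00287). These last 2 were among the smallest p-values of all genes and did not overlap.

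Of 18 CC chemokines and receptors, 6 were higher and none lower, with 2 calls without KO 11 and KO 12, and 2 when KO 11 or WT 20 was left out and 3 when KO 4, KO 6, WT 14, WT 15, WT 16, WT 21 or WT 23 was left out. Ccl8, a ligand that draws monocytes and T cells, had 41.9, 50.7 and 109 CPM in Csf1r-high tumours, against 20.02, 29.5 and 46.2 CPM in Csf1r-low tumours (log2 fold change 0.96 ± 0.17, adjusted p = 0.00923). Ccl2 itself did not pass, with 4.39, 5.51 and 20.9 CPM in Csf1r-high tumours, against 1.51, 4.48 and 7.15 CPM in Csf1r-low tumours (log2 fold change 0.80 ± 0.34, adjusted p = 0.178). The classes overlapped slightly for Ccl8 and broadly for Ccl2. Ccl21a, a ligand of Ccr7 made by lymphatic vessels and lymph node stroma, was among the largest rises of called genes averaging at least 5 CPM, with 1.54, 5.50 and 61.1 CPM in Csf1r-high tumours, against 0.0428, 1.82 and 4.01 CPM in Csf1r-low tumours (log2 fold change 2.93 ± 0.73, adjusted p = 0.0337), and its near-identical gene copies make its read count uncertain.

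Antigen presentation on MHC class II tracked Csf1r closely, whereas no class I gene passed the test. Of 10 class II genes, 7 were higher, 6 of them without overlap (median 1.01), and 6 were higher without KO 11 and KO 12. H2-Eb1, a beta chain, had 293, 349 and 445 CPM in Csf1r-high tumours, against 102, 179 and 216 CPM in Csf1r-low tumours (log2 fold change 1.03 ± 0.13, adjusted p = 0.00287). H2-Aa, an alpha chain, had 369, 474 and 659 CPM in Csf1r-high tumours, against 119.9, 248 and 287 CPM in Csf1r-low tumours (log2 fold change 1.12 ± 0.16, adjusted p = 0.00415). Cd74, the invariant chain, had 583, 726 and 1012 CPM in Csf1r-high tumours, against 229, 385 and 513 CPM in Csf1r-low tumours (log2 fold change 0.99 ± 0.15, adjusted p = 0.00418). In each of the 3 the lowest Csf1r-high tumour was above the highest Csf1r-low tumour. None of 12 class I genes was called by edgeR, and their median log2 fold change was 0.14. H2-K1, a class I heavy chain, had 483, 1582 and 2488 CPM in Csf1r-high tumours, against 523, 994 and 2118 CPM in Csf1r-low tumours (log2 fold change 0.31 ± 0.35, adjusted p = 0.648). B2m, the light chain of class I, had 497, 1442 and 2202 CPM in Csf1r-high tumours, against 519.7, 944 and 1799 CPM in Csf1r-low tumours (log2 fold change 0.35 ± 0.33, adjusted p = 0.568). Both spread about as widely within a class as over all 16 tumours. Interferon response genes gave 1 call among 18, Cxcl9, a chemokine for T cells induced by interferon gamma, with 2.46, 8.89 and 14.4 CPM in Csf1r-high tumours, against 0.532, 2.98 and 5.59 CPM in Csf1r-low tumours (log2 fold change 1.71 ± 0.37, adjusted p = 0.0194), and 1 without KO 11 and KO 12.

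Dendritic cell genes were higher in 7 of 12 (median 1.23), and in 5 without KO 11 and KO 12. Clec9a, a receptor for dead cells on cross-presenting dendritic cells, had 0.614, 1.31 and 3.82 CPM in Csf1r-high tumours, against 0.129, 0.340 and 0.789 CPM in Csf1r-low tumours (log2 fold change 1.95 ± 0.37, adjusted p = 0.0117). Xcr1, the chemokine receptor of the same cells, had 0.461, 1.21 and 3.61 CPM in Csf1r-high tumours, against 0.182, 0.393 and 0.5262 CPM in Csf1r-low tumours (log2 fold change 1.78 ± 0.36, adjusted p = 0.0150). Flt3, the receptor that dendritic cells need to develop, had 1.03, 1.4 and 5.02 CPM in Csf1r-high tumours, against 0.0857, 0.565 and 0.810 CPM in Csf1r-low tumours (log2 fold change 1.77 ± 0.38, adjusted p = 0.0189). Levels were low, and the classes did not overlap for Flt3. Irf8, a transcription factor of this lineage and of macrophages, had 17.5, 20.4 and 45.9 CPM in Csf1r-high tumours, against 7.15, 11.6 and 16.1 CPM in Csf1r-low tumours (log2 fold change 0.97 ± 0.20, adjusted p = 0.0183), also without overlap.

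**Figure D2:**
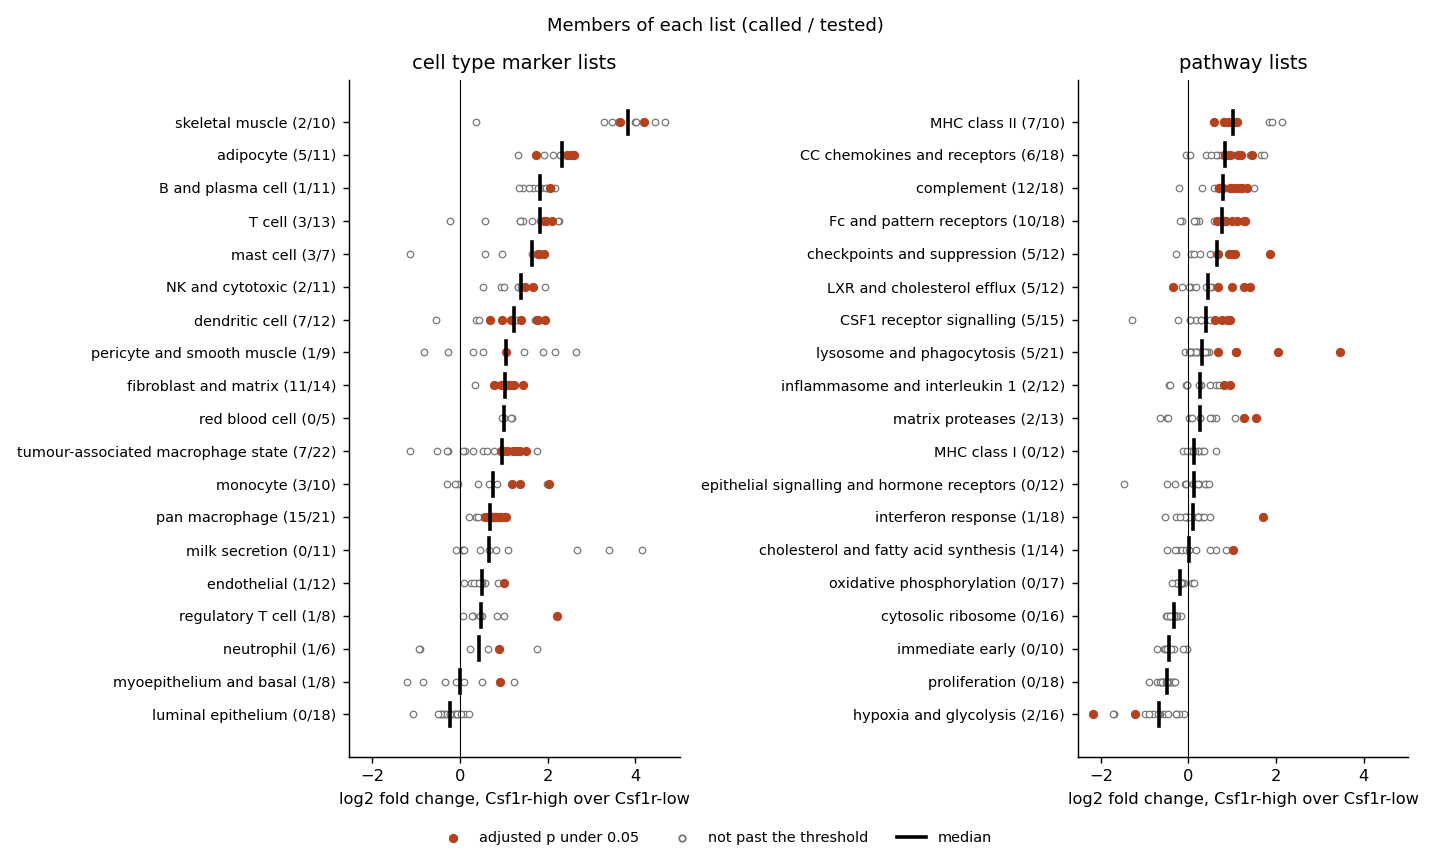
Log2 fold change, Csf1r-high over Csf1r-low, of every tested member of the cell type lists (left) and pathway lists (right), with the number called over the number tested; filled points had an adjusted p under 0.05 and bars are medians. Muscle and fat lists have the largest medians (3.82 and 2.33), with 2 of 10 and 5 of 11 genes called. The pan-macrophage list has a median of 0.69, with 15 of 21 genes called.

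Lymphocyte genes had large but uneven differences. Of 13 T cell genes, 3 were higher and none lower, although the median log2 fold change was 1.81; it was 2.76 within the libraries labelled KO and 0.82 within those labelled WT. Cd3d, a chain of the T cell receptor complex, had 1.11, 1.51 and 11.4 CPM in Csf1r-high tumours, against 0.292, 0.518 and 1.38 CPM in Csf1r-low tumours (log2 fold change 2.10 ± 0.53, adjusted p = 0.0349). Cd3e, its partner chain, had 0.845, 1.81 and 8.64 CPM in Csf1r-high tumours, against 0.146, 0.672 and 1.23 CPM in Csf1r-low tumours (log2 fold change 1.93 ± 0.55, adjusted p = 0.0560). Both reached their highest value in KO 11. Cd8a, the co-receptor of killer T cells, had 1.11, 2.51 and 17.6 CPM in Csf1r-high tumours, against 0.365, 1.14 and 2.54 CPM in Csf1r-low tumours (log2 fold change 1.81 ± 0.61, adjusted p = 0.0945). Cd4, the co-receptor of helper T cells that some macrophages share, had 2.01, 2.71 and 16.7 CPM in Csf1r-high tumours, against 0.948, 1.42 and 3.43 CPM in Csf1r-low tumours (log2 fold change 1.36 ± 0.47, adjusted p = 0.102). In all 4, KO 11 and then KO 10 held the highest values, far above the Csf1r-low tumours. The lowest Csf1r-high tumours overlapped the Csf1r-low tumours. Cd3d had 330 reads in KO 11 and 207 in KO 10, whereas the next Csf1r-high tumour, KO 4, had 64. For Cd4 these counts were 484, 223 and 106, the last again in KO 4. For Cd3e they were 251, 148 and 57, and for Cd8a 512, 196 and 114, the last in WT 16 for both. Cd2 and Cd28, an adhesion molecule and a costimulatory receptor, were the other 2 calls (1.96 and 1.91). No T cell call was left without KO 11 and KO 12. The calls numbered 0 when KO 2, KO 6, KO 11, KO 12, WT 16, WT 20 or WT 23 was left out, 1 when KO 1 or WT 21 was left out, 5 when WT 24 was left out and 6 when KO 7 was left out.

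Among 8 tested genes of regulatory T cells, the only call was Icos, a costimulator also found on other activated T cells, with 0.277, 0.736 and 4.82 CPM in Csf1r-high tumours, against 0.0365, 0.246 and 0.395 CPM in Csf1r-low tumours (log2 fold change 2.21 ± 0.48, adjusted p = 0.0198), and the calls numbered 1 without KO 11 and KO 12, and 2 when WT 23 was left out. Ctla4, the inhibitory receptor of these cells, had 0.0427, 0.303 and 1.45 CPM in Csf1r-high tumours, against 0, 0.191 and 0.570 CPM in Csf1r-low tumours (log2 fold change 1.00 ± 0.51, adjusted p = 0.264). Foxp3, their defining transcription factor, had too few reads to be tested, 66 in the 8 Csf1r-high libraries and 19 in the 8 Csf1r-low libraries. Of 11 natural killer and cytotoxic genes, Eomes and Tbx21, the paired transcription factors of killer lymphocytes, were called, with log2 fold changes of 1.49 and 1.66. Of 11 B and plasma cell genes, Pou2af1, a coactivator of immunoglobulin genes, was called (log2 fold change 2.05 ± 0.56, adjusted p = 0.0476). Its list had a median log2 fold change of 4.12 within the libraries labelled KO and -0.47 within those labelled WT. No interaction with the label was called for any of its genes. Single tumours held most reads of its abundant members within KO. Ighm had 8438 reads in KO 11 and 2335 in KO 10, against 655 in KO 4 and 264 in KO 7. Jchain had 2122 reads in KO 11, against 268 in KO 4, 247 in KO 10 and 62 in KO 7. Mast cell genes gave 3 calls of 7, the granule proteases Cpa3, Mcpt4 and Tpsb2 (1.79, 1.79 and 1.92). No call of the cytotoxic, B cell or mast cell lists was left without KO 11 and KO 12. The cytotoxic calls numbered 0 when KO 1, KO 2, KO 4, KO 6, KO 11, KO 12, WT 16, WT 20, WT 21 or WT 23 was left out, 1 when KO 10, WT 14 or WT 15 was left out, 4 when WT 19 was left out and 5 when KO 7 was left out. The B cell calls numbered 0 when KO 1, KO 2, KO 4, KO 6, KO 10, KO 11, KO 12, WT 14, WT 16, WT 19, WT 20, WT 21 or WT 23 was left out and 3 when WT 24 was left out. The mast cell calls numbered 0 when KO 1, KO 6, KO 11, KO 12, WT 16, WT 20, WT 21, WT 23 or WT 24 was left out and 1 when WT 15 was left out.

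Of 12 tested genes of immune checkpoints and suppression, 5 were higher and none lower. Cd86, a ligand for Cd28 and Ctla4 on antigen-presenting cells, had 7.76, 10.5 and 20.2 CPM in Csf1r-high tumours, against 4.78, 5.78 and 7.46 CPM in Csf1r-low tumours (log2 fold change 0.93 ± 0.17, adjusted p = 0.00979). Il10ra, the receptor for interleukin 10, had 16.3, 21.1 and 35 CPM in Csf1r-high tumours, against 6.23, 11.2 and 13.6 CPM in Csf1r-low tumours (log2 fold change 1.07 ± 0.17, adjusted p = 0.00448). Tigit, an inhibitory receptor of T and natural killer cells, had 0.237, 0.535 and 0.705 CPM in Csf1r-high tumours, against 0, 0.146 and 0.278 CPM in Csf1r-low tumours (log2 fold change 1.85 ± 0.43, adjusted p = 0.0245). Cd80, the sister of Cd86, and Havcr2, the receptor TIM-3, completed the calls (1.00 and 0.68). Cd86 and Il10ra did not overlap between the classes. Cd274, the ligand PD-L1, had 4.51, 7.77 and 13.5 CPM in Csf1r-high tumours, against 3.35, 4.89 and 9.92 CPM in Csf1r-low tumours (log2 fold change 0.49 ± 0.26, adjusted p = 0.274), and Tgfb1, a suppressive growth factor, had 32.6, 50.1 and 54.2 CPM in Csf1r-high tumours, against 33.3, 43.7 and 52.9 CPM in Csf1r-low tumours (log2 fold change 0.12 ± 0.12, adjusted p = 0.590). The calls numbered 2 without KO 11 and KO 12, and 2 when KO 6 or WT 20 was left out and 3 when KO 11 was left out.

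Of 21 lysosome and phagocytosis genes, 5 were higher and none lower (median 0.31). Ctsd, cathepsin D and among the most abundant lysosomal proteases, had 1361, 1566 and 2052 CPM in Csf1r-high tumours, against 1087, 1519 and 1903 CPM in Csf1r-low tumours (log2 fold change 0.040 ± 0.15, adjusted p = 0.910). Ctsb, cathepsin B, had 977, 1309 and 1893 CPM in Csf1r-high tumours, against 879, 1106 and 1205 CPM in Csf1r-low tumours (log2 fold change 0.32 ± 0.14, adjusted p = 0.195). Both are also made by many other cells, and the ranges of the classes overlapped for both. The members that rose were Axl, a receptor for dying cells, Ctsk and Ctss, proteases of macrophages and osteoclasts or of antigen-presenting cells, Cd36, a scavenger receptor also found on fat cells and vessels, and Timd4, a receptor for phosphatidylserine. Axl had 91.4, 108 and 149.8 CPM in Csf1r-high tumours, against 27.5, 61.6 and 72.1 CPM in Csf1r-low tumours (log2 fold change 1.07 ± 0.17, adjusted p = 0.00418), without overlap. Ctsk had 18.2, 25.1 and 38.6 CPM in Csf1r-high tumours, against 6.97, 11.4 and 19.1 CPM in Csf1r-low tumours (log2 fold change 1.09 ± 0.20, adjusted p = 0.00923). The classes overlapped slightly for Ctsk. Cd36 had 28.8, 60.6 and 297 CPM in Csf1r-high tumours, against 5.21, 20.4 and 71.0 CPM in Csf1r-low tumours (log2 fold change 2.04 ± 0.41, adjusted p = 0.0145). Timd4 had 0.277, 0.750 and 37.3 CPM in Csf1r-high tumours, against 0.0729, 0.205 and 0.653 CPM in Csf1r-low tumours (log2 fold change 3.45 ± 0.93, adjusted p = 0.0447), and its highest value was that of KO 11. The list had 4 calls without KO 11 and KO 12.

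Genes of cholesterol export, which the liver X receptors control, gave 4 rises and 1 fall among 12. Besides Apoe, these were Pltp, the phospholipid transfer protein, with 24.4, 33.3 and 65.9 CPM in Csf1r-high tumours, against 7.04, 14 and 19.6 CPM in Csf1r-low tumours (log2 fold change 1.39 ± 0.22, adjusted p = 0.00418), Abca1, the exporter of cholesterol to apolipoproteins, and Cyp27a1, a sterol hydroxylase. Abca1 had 120, 169 and 208 CPM in Csf1r-high tumours, against 47.4, 112 and 142 CPM in Csf1r-low tumours (log2 fold change 0.67 ± 0.17, adjusted p = 0.0392). Cyp27a1 had 2.99, 7.0 and 17.3 CPM in Csf1r-high tumours, against 1.31, 3.82 and 4.48 CPM in Csf1r-low tumours (log2 fold change 1.27 ± 0.33, adjusted p = 0.0370). Both overlapped between the classes. Nr1h2, liver X receptor beta, was lower, with 67.5, 79.6 and 85.4 CPM in Csf1r-high tumours, against 79.0, 99.7 and 121 CPM in Csf1r-low tumours (log2 fold change -0.36 ± 0.088, adjusted p = 0.0284). Nr1h3, liver X receptor alpha and the form rich in macrophages, had 7.14, 8.59 and 25.8 CPM in Csf1r-high tumours, against 5.72, 6.72 and 8.84 CPM in Csf1r-low tumours (log2 fold change 0.54 ± 0.23, adjusted p = 0.196). Pltp alone of these did not overlap between classes. The rises numbered 1 without KO 11 and KO 12, and 1 when WT 20 was left out and 2 when KO 2, KO 6, KO 11, WT 16, WT 21 or WT 23 was left out, and the fall of Nr1h2 was kept in 9 of the 16 fits that leave out 1 tumour and not without KO 11 and KO 12.

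Of 12 inflammasome and interleukin 1 genes, Il1r1, the interleukin 1 receptor, and Gsdmd, the pore former of pyroptosis, were higher (0.80 and 0.94), and the calls numbered 0 without KO 11 and KO 12, and 0 when KO 6, KO 11, WT 16 or WT 20 was left out and 1 when KO 1, KO 2, KO 4, WT 19, WT 21 or WT 23 was left out. Of 13 matrix proteases and inhibitors, Mmp2 and Mmp3, gelatinase A and stromelysin 1, which fibroblasts make in large amounts, were higher. Mmp2 had 76.4, 135 and 181 CPM in Csf1r-high tumours, against 30.5, 51.5 and 74.6 CPM in Csf1r-low tumours (log2 fold change 1.26 ± 0.22, adjusted p = 0.00871). Mmp3 had 20.2, 37.7 and 58.0 CPM in Csf1r-high tumours, against 5.40, 14 and 19.6 CPM in Csf1r-low tumours (log2 fold change 1.55 ± 0.23, adjusted p = 0.00418). Both separated the classes without overlap and were called in all 16 fits that leave out 1 tumour, and the list had 2 calls without KO 11 and KO 12.

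Stromal genes rose with Csf1r. Of 14 fibroblast and matrix genes, 11 were higher and none lower (median 1.02), and every one of them overlapped between the classes. Col3a1, a fibrillar collagen, had 721, 1128 and 1559 CPM in Csf1r-high tumours, against 170.5, 453 and 1042 CPM in Csf1r-low tumours (log2 fold change 1.17 ± 0.26, adjusted p = 0.0220). Sparc, a matrix-binding glycoprotein, had 479, 896 and 1364 CPM in Csf1r-high tumours, against 285, 380 and 696 CPM in Csf1r-low tumours (log2 fold change 1.12 ± 0.21, adjusted p = 0.0116). Dcn, the proteoglycan decorin, had 117, 259 and 568 CPM in Csf1r-high tumours, against 43.1, 103 and 175 CPM in Csf1r-low tumours (log2 fold change 1.44 ± 0.32, adjusted p = 0.0208). The summed CPM of the list ran from 3511 to 6253 in Csf1r-high tumours, against 1154 to 4097 in Csf1r-low tumours. With a fibroblast score as a covariate no gene of the genome was called, and 1377 had an unadjusted p under 0.05. The score is made from this list, which differed between the classes, so a loss of calls is partly built into that fit. The list had 8 calls without KO 11 and KO 12, and 4 when WT 20 was left out and 6 when KO 6 or KO 11 was left out. Endothelial genes gave 1 call of 12, the angiopoietin receptor Tek (log2 fold change 1.01 ± 0.22, adjusted p = 0.0207), and the calls numbered 1 without KO 11 and KO 12, and 3 when KO 10 was left out. Pecam1, the adhesion molecule CD31 of vessels, had 23.4, 32.2 and 54.6 CPM in Csf1r-high tumours, against 16.1, 23.9 and 33 CPM in Csf1r-low tumours (log2 fold change 0.55 ± 0.18, adjusted p = 0.0837). Among 9 genes of pericytes and smooth muscle the only call was Cspg4, the proteoglycan NG2 (1.04), and the calls numbered 0 without KO 11 and KO 12, and 0 when KO 11, WT 16 or WT 20 was left out, 2 when KO 1 or KO 7 was left out and 3 when KO 10 was left out.

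Genes of fat and skeletal muscle, tissues that adjoin the mammary gland, were among the largest rises of called genes averaging at least 5 CPM. Of 11 adipocyte genes 5 were higher (median 2.33), and of 10 muscle genes 2 were higher (median 3.82). Fabp4, the fatty acid carrier of fat cells, had 53.2, 131 and 1195 CPM in Csf1r-high tumours, against 7.0, 30.3 and 211 CPM in Csf1r-low tumours (log2 fold change 2.44 ± 0.62, adjusted p = 0.0345). Lpl, lipoprotein lipase, had 59.2, 155 and 743 CPM in Csf1r-high tumours, against 27.4, 62.7 and 148 CPM in Csf1r-low tumours (log2 fold change 1.74 ± 0.35, adjusted p = 0.0145). Lep, leptin, had 3.46, 9.54 and 35.4 CPM in Csf1r-high tumours, against 0.109, 0.944 and 10.5 CPM in Csf1r-low tumours (log2 fold change 2.59 ± 0.71, adjusted p = 0.0473). In each the classes overlapped, and the highest value belonged to KO 11 in all 7 called genes of the 2 lists. Atp2a1, the calcium pump of fast muscle, had 0.349, 18.6 and 1240.4 CPM in Csf1r-high tumours, against 0.516, 5.84 and 42.4 CPM in Csf1r-low tumours (log2 fold change 4.19 ± 1.14, adjusted p = 0.0471). Ttn, the giant sarcomere protein titin, had 0.722, 10.2 and 303 CPM in Csf1r-high tumours, against 0.343, 3.53 and 16.2 CPM in Csf1r-low tumours (log2 fold change 3.66 ± 0.99, adjusted p = 0.0447). The other large rises by the rule were Car3 and Retn of fat, Nrap of muscle, Pdk4, a kinase that turns cells from glucose to fat as fuel, Abca8a, a lipid transporter, Asb2, a ubiquitin ligase subunit, and Trarg1, a regulator of the glucose transporter GLUT4, with log2 fold changes between 2.10 and 3.13. Without KO 11 and KO 12, 1 adipocyte gene and no muscle gene was called. The adipocyte calls numbered 1 when KO 6, KO 11, KO 12, WT 16, WT 20, WT 21, WT 23 or WT 24 was left out, 2 when KO 1, WT 14 or WT 15 was left out, 3 when WT 19 was left out and 10 when KO 2 was left out. The muscle calls numbered 0 when KO 1, KO 2, KO 6, KO 11, KO 12, WT 15, WT 16, WT 19, WT 20, WT 21, WT 23 or WT 24 was left out and 8 when KO 10 was left out, and the muscle median was 2.37 without KO 11.

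With adipocyte and muscle scores as covariates no gene of the genome was called, and 1717 had an unadjusted p under 0.05. In that fit Adgre1 differed by 0.65 on the log2 scale and H2-Eb1 by 0.81, against 1.02 and 1.03 without covariates. With a T cell score as a covariate no gene was called either, and Adgre1 and H2-Eb1 differed by 0.85 and 0.80. With the fibroblast score these 2 values were 0.70 and 0.94. The lists behind the scores themselves differed between the classes. Their median log2 fold changes were 2.33 for adipocyte, 3.82 for muscle, 1.02 for fibroblast and 1.81 for T cell genes. The scores therefore overlap with the class, and a loss of calls is partly built into these fits. What part fat, muscle, stroma or lymphocytes have in the macrophage differences was not tested.

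**Figure D3:**
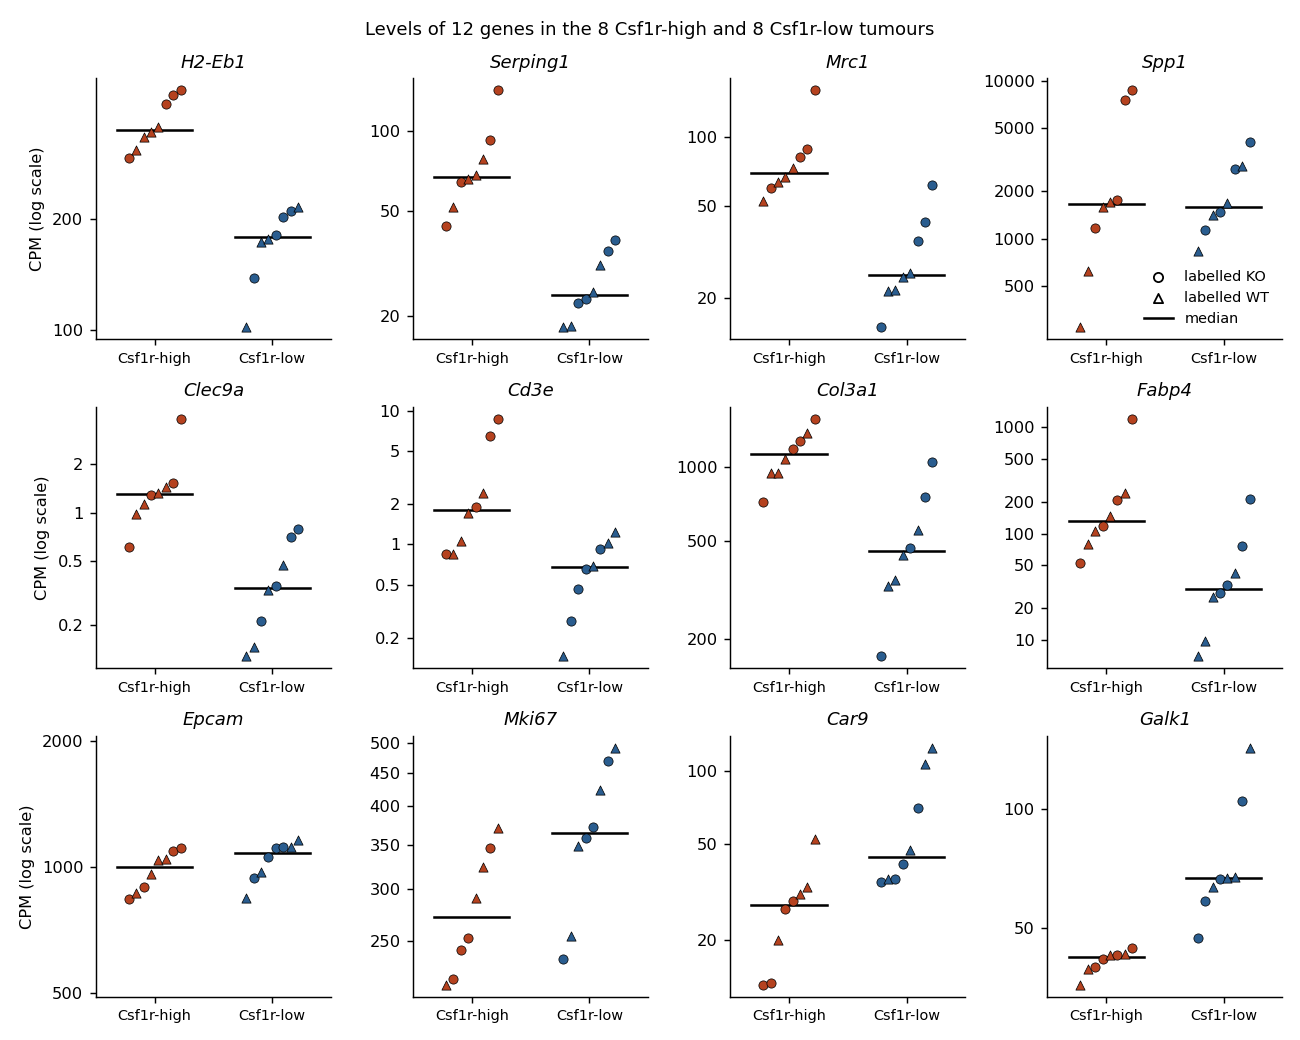
CPM on a log axis of 12 genes in the 8 Csf1r-high and 8 Csf1r-low tumours; circles are libraries labelled KO, triangles libraries labelled WT, and bars medians. H2-Eb1, Serping1 and Galk1 separate the classes, Spp1, Epcam and Mki67 overlap broadly, and Fabp4 reaches 1195 CPM in the highest Csf1r-high tumour.

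No luminal gene and 1 basal gene of the epithelium passed the test. None of 18 luminal genes was called by edgeR, 1 was called lower when KO 1 or KO 7 was left out, and 15 had a negative log2 fold change (median -0.22). Epcam, the epithelial adhesion molecule, had 837, 1000.5 and 1108 CPM in Csf1r-high tumours, against 842, 1082 and 1158 CPM in Csf1r-low tumours (log2 fold change -0.11 ± 0.10, adjusted p = 0.545). Krt8, a keratin of luminal cells, had 783, 964 and 1391 CPM in Csf1r-high tumours, against 972, 1275 and 1898 CPM in Csf1r-low tumours (log2 fold change -0.38 ± 0.19, adjusted p = 0.250). Levels of both were high in every tumour. Of 8 basal genes, Trp63, the p53 relative of basal cells, was called (log2 fold change 0.91 ± 0.25, adjusted p = 0.0460), and this held in 2 of 16 fits that leave out 1 tumour and not without KO 11 and KO 12. None of 11 milk genes and none of 5 red blood cell genes was called by edgeR. Csn2, beta casein, had 0, 2.98 and 14732 CPM in Csf1r-high tumours, against 0.0329, 3.98 and 281 CPM in Csf1r-low tumours, and its top value was that of KO 7. Without KO 7 the median of the milk genes was -0.15, against 0.66 with it, and 1 milk gene was called lower. Among hormone receptors and growth factor receptors none of 12 passed with edgeR, and 1 was called lower without KO 4. Esr1, the oestrogen receptor, had 7.6, 22.5 and 29.3 CPM in Csf1r-high tumours, against 1.97, 13.6 and 22.7 CPM in Csf1r-low tumours (log2 fold change 0.40 ± 0.36, adjusted p = 0.547), and Erbb2, the receptor HER2, had 72.4, 80.3 and 97.4 CPM in Csf1r-high tumours, against 69.8, 96.6 and 138 CPM in Csf1r-low tumours (log2 fold change -0.30 ± 0.10, adjusted p = 0.0818).

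No cell cycle gene and 2 hypoxia genes passed the test. All 18 proliferation genes had a negative log2 fold change, against 51.7% of all genes tested (median -0.49), and none passed the threshold with edgeR. Mki67, the proliferation antigen Ki-67, had 214, 272 and 371 CPM in Csf1r-high tumours, against 235, 365 and 491 CPM in Csf1r-low tumours (log2 fold change -0.39 ± 0.16, adjusted p = 0.156). Top2a, the topoisomerase of dividing cells, had 118, 153 and 215 CPM in Csf1r-high tumours, against 168, 221 and 416 CPM in Csf1r-low tumours (log2 fold change -0.55 ± 0.18, adjusted p = 0.0847). The ranges of both overlapped, and 5 proliferation genes were called lower without KO 7 and 1 without KO 1. All 16 hypoxia and glycolysis genes also had a negative log2 fold change (median -0.68), and 2 passed. Car9, a carbonic anhydrase induced by low oxygen, had 13.1, 28 and 52.0 CPM in Csf1r-high tumours, against 34.8, 44.1 and 124 CPM in Csf1r-low tumours (log2 fold change -1.21 ± 0.31, adjusted p = 0.0368). Adm, the vessel-active peptide adrenomedullin, had 2.56, 3.80 and 14.1 CPM in Csf1r-high tumours, against 3.35, 14.6 and 71.5 CPM in Csf1r-low tumours (log2 fold change -2.19 ± 0.60, adjusted p = 0.0477). Vegfa, the vascular growth factor, came near the threshold, with 21.4, 41.3 and 78.0 CPM in Csf1r-high tumours, against 43.4, 83.1 and 331 CPM in Csf1r-low tumours (log2 fold change -1.69 ± 0.47, adjusted p = 0.0502). The hypoxia calls numbered 0 when KO 4, KO 6, KO 11, KO 12, WT 14, WT 16, WT 20, WT 21 or WT 23 was left out, 1 when KO 10 or WT 15 was left out and 4 when WT 19 was left out, and 0 without KO 11 and KO 12. All 16 ribosomal protein genes had small negative values (median -0.33) without a call by edgeR, but without KO 12 the median was -0.11 and 1 gene was called lower. Of the remaining lists, oxidative phosphorylation and the immediate early genes had no call among 17 and 10 genes tested with edgeR. Fatty acid and cholesterol synthesis had 1 among 14, the fatty acid desaturase Scd1, which is abundant in fat cells (log2 fold change 1.02 ± 0.26, adjusted p = 0.0370), and 0 without KO 11 and KO 12.

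Among the other genes that fell most, Sox11, a transcription factor of embryonic progenitors, had 0.384, 1.96 and 6.93 CPM in Csf1r-high tumours, against 1.20, 19.4 and 42.2 CPM in Csf1r-low tumours (log2 fold change -2.77 ± 0.76, adjusted p = 0.0479). Bex1, a small adaptor of neural and progenitor cells, had 1.23, 2.42 and 4.01 CPM in Csf1r-high tumours, against 1.58, 6.76 and 41.1 CPM in Csf1r-low tumours (log2 fold change -2.22 ± 0.55, adjusted p = 0.0330). S100a14, a calcium-binding protein of epithelia, had 3.93, 11.8 and 17.2 CPM in Csf1r-high tumours, against 14.4, 33.7 and 237 CPM in Csf1r-low tumours, with the top value in KO 12 (log2 fold change -2.17 ± 0.57, adjusted p = 0.0408). All 3 overlapped between the classes. Fbp1, an enzyme that makes glucose, had 1.19, 2.57 and 4.55 CPM in Csf1r-high tumours, against 4.03, 5.60 and 13.8 CPM in Csf1r-low tumours (log2 fold change -1.33 ± 0.29, adjusted p = 0.0215). Phgdh, the first enzyme of serine synthesis, had 27.1, 33.1 and 41.2 CPM in Csf1r-high tumours, against 36.8, 56.8 and 102 CPM in Csf1r-low tumours (log2 fold change -0.87 ± 0.17, adjusted p = 0.0134). Fbp1 and Phgdh passed in all 16 fits that leave out 1 tumour, whereas Sox11 passed in 3, Bex1 in 9 and S100a14 in 6. Aqp9, a glycerol channel, B4galnt4, a glycosyltransferase, and Krt23, an epithelial keratin, also fell (-1.62, -1.25 and -0.93).

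The falls were spread unevenly over the chromosomes. Of the 166 genes that fell, 76 lie on chromosome 11 and 44 on chromosome 7, while these chromosomes hold 15.7% of genes tested. The largest fall on these chromosomes was that of Adm of the hypoxia list (log2 fold change -2.19). On chromosome 11, 5.54% of tested genes fell, against 0.98% of all genes, and 4.08% rose, against 3.78%. Galk1, the galactose kinase on chromosome 11, had 36.0, 42.4 and 44.5 CPM in Csf1r-high tumours, against 47.4, 66.9 and 143 CPM in Csf1r-low tumours (log2 fold change -0.94 ± 0.20, adjusted p = 0.0189), and Eme1, a DNA repair nuclease subunit on the same chromosome, had 2.41, 3.56 and 4.78 CPM in Csf1r-high tumours, against 4.80, 5.75 and 14.5 CPM in Csf1r-low tumours (log2 fold change -0.97 ± 0.23, adjusted p = 0.0277), both without overlap. Of the 6 falls named for their small p-values beside those named for their fold, all but Erc2 are on chromosome 11. These, Sap30bp, Psmd12, Cep131, Mettl2 and Llgl2, fell by 0.43 to 0.50 on the log2 scale. Psmd12, a proteasome subunit, had 106, 116 and 124 CPM in Csf1r-high tumours, against 139.7, 149 and 173 CPM in Csf1r-low tumours, without overlap. Erc2, a synaptic scaffold gene on chromosome 14 had few reads, with 0, 0.0962 and 0.275 CPM in Csf1r-high tumours, against 0.230, 1.27 and 2.34 CPM in Csf1r-low tumours (log2 fold change -3.50 ± 0.64, adjusted p = 0.00979).

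The level of a whole chromosome was taken as the median, over its genes with a mean of at least 5 CPM, of each gene's log2 level centred on its mean over all 24 tumours. From each centred value the median over all such genes of the same tumour was subtracted. A level is therefore relative to the other genes of its tumour. For chromosome 11 this level ran from -0.091 to -0.047 in Csf1r-high tumours, against -0.086 to 0.32 in Csf1r-low tumours. WT 19, WT 23, WT 24 and KO 2 carried the high values of the Csf1r-low class, at 0.32, 0.21, 0.15 and 0.063. The means of the classes differed by -0.15 (exact permutation test within labels, two-sided, p = 0.00286, adjusted p = 0.0286 over 20 chromosomes). For chromosome 7 the level ran from -0.058 to -0.0065 in Csf1r-high tumours, against -0.077 to 0.29 in Csf1r-low tumours, and the difference of -0.10 did not pass (exact permutation p = 0.0861, adjusted p = 0.246). Chromosomes 6 and 9 differed by less in the other direction (0.048 and 0.039, adjusted exact permutation p = 0.0286 and 0.0299). WT 19, WT 23, WT 24 and KO 2 had chromosome 6 levels of -0.062, -0.034, -0.039 and -0.044. Because levels are relative within a tumour, a high chromosome 11 or 7 can lower the others. Whether chromosomes 6 and 9 differ apart from that was not tested. With the chromosome medians of each library as an offset in the fit, 59 genes fell, of which 9 lie on chromosome 11 and 3 on chromosome 7, and 563 rose, against 166 and 640 without it. The offset removes any shift that the genes of a chromosome share, so fewer falls on chromosomes 11 and 7 were built into this fit. Copy number was not measured. The falls numbered 22 when WT 20 was left out, 33 when KO 11 was left out, 40 when WT 16 was left out, 70 when KO 4 was left out, 84 when KO 6 was left out, 91 when WT 14 was left out, 93 when WT 23 was left out, 95 when WT 24 was left out, 96 when WT 15 or WT 19 was left out, 98 when KO 2 was left out, 101 when KO 10 was left out and 275 when KO 7 was left out. Chromosome 11 held 14 of the 22 falls without WT 20 and 108 of the 275 without KO 7. Chromosome 7 held 1 of the falls without WT 20, 4 of 33 without KO 11, 5 of 40 without WT 16 and 12 of 98 without KO 2, so its share of the falls rests on single tumours.

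**Figure D4:**
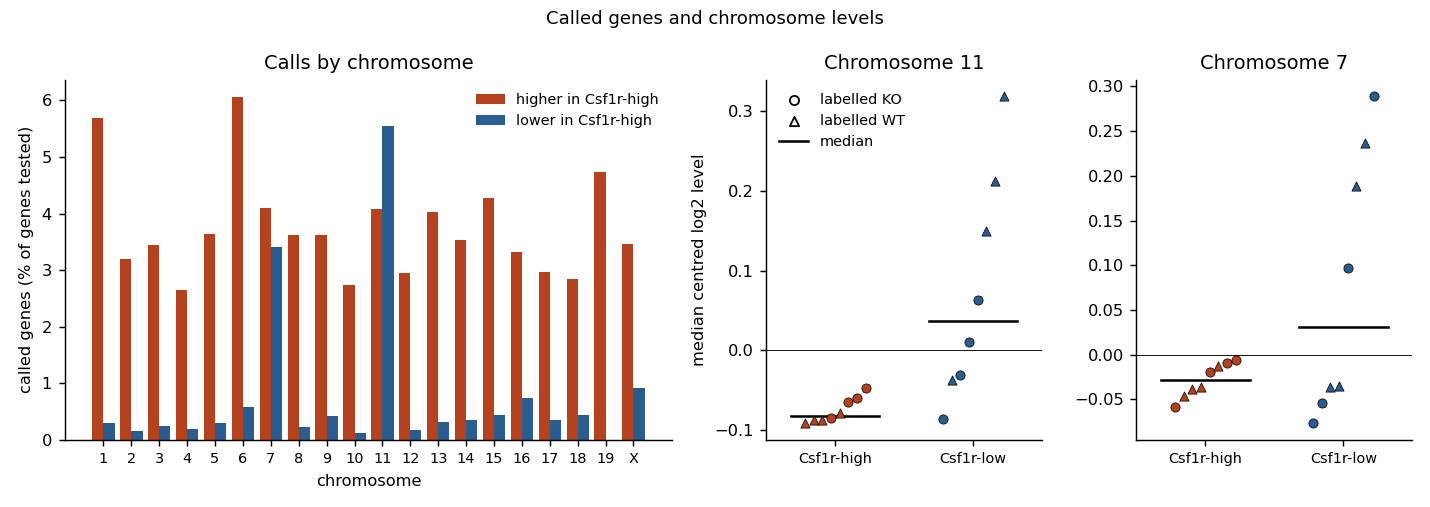
Left, percentage of tested genes on each chromosome called higher or lower in Csf1r-high tumours. Middle and right, median centred log2 level of the genes of chromosomes 11 and 7 in each Csf1r-high and Csf1r-low tumour (circles labelled KO, triangles labelled WT, bars medians); on chromosome 11 all 8 Csf1r-high tumours are below 0, and Csf1r-low tumours reach 0.32.

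Within each label 4 Csf1r-high tumours stand against 4 Csf1r-low tumours, in a fit that shares 1 estimate of the spread over all 16 tumours. Over all genes tested, 67.1% had a log2 fold change of the same sign within the libraries labelled KO and within those labelled WT. All 806 called genes did, which their call in a fit that holds both labels largely fixes. Some list medians had opposite signs, among them basal genes (-0.60 within KO and 0.62 within WT), milk genes (1.32 and -0.059) and interferon response genes (0.21 and -0.13). Within the libraries labelled KO, 66 genes passed (0.39%), all higher. Within those labelled WT none passed with edgeR, while 1907 had an unadjusted p under 0.05 (11.3%) and DESeq2 called 312. The interaction of class with label was called for no gene by edgeR, with 617 at an unadjusted p under 0.05 (3.64%) and 12 calls by DESeq2, so no gene was shown by edgeR to differ with Csf1r in 1 label and not in the other. Adgre1 differed by 1.02 within KO and 1.02 within WT, and Serping1 by 1.505 and 1.49. The smallest interaction p-values were those of Tmem150c, Gaa, the lysosomal alpha-glucosidase, and Rptn, an epidermal protein. Gaa differed by 0.41 within KO and -0.48 within WT (edgeR interaction, adjusted p = 0.9999). The count within KO was 0 when KO 1, KO 2, KO 10, KO 11, KO 12, WT 14, WT 15, WT 16, WT 20, WT 21 or WT 24 was left out, 1 when KO 6 was left out, 35 when WT 19 was left out, 112 when WT 23 was left out, 114 when KO 4 was left out and 209 when KO 7 was left out. The count within WT was 1 when KO 11 was left out and 61 when KO 12 was left out. A tumour of the other label is not among those compared, but leaving it out changes the shared spread and the genes tested.

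**Figure D5:**
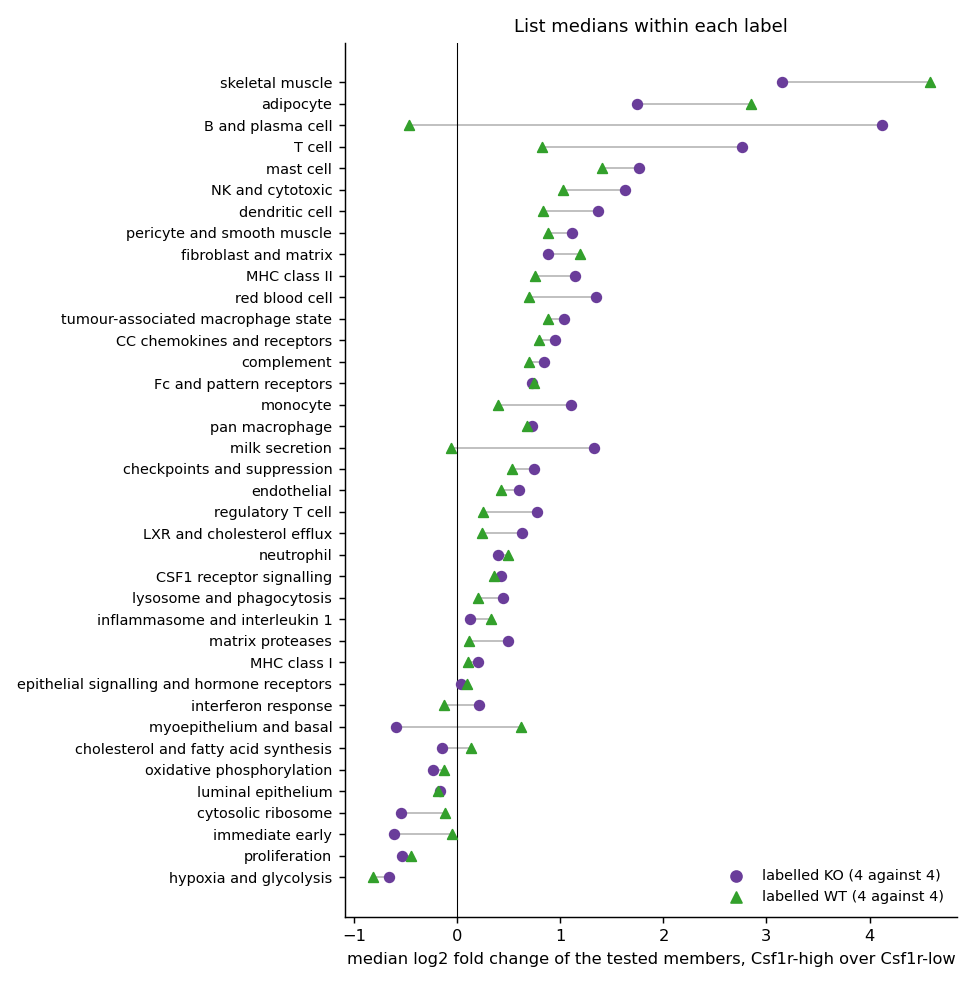
Median log2 fold change of the tested members of each list, Csf1r-high over Csf1r-low, within the libraries labelled KO (circles) and within those labelled WT (triangles), 4 tumours against 4 in each. The pan-macrophage medians are 0.72 and 0.68, and the B and plasma cell medians 4.12 and -0.47. Of the B and plasma cell list, Ighm had 8438 reads in KO 11 and 2335 in KO 10, against 655 in KO 4 and 264 in KO 7. EdgeR called no interaction of class with label for any gene.

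The Csf1r level, on which a slope was taken here, is also what placed 8 tumours in neither class. The comparison of the classes did not use the values of other genes in these 8 tumours. In them no gene had a slope on log2 Csf1r that passed with edgeR, and 776 genes (4.58%) had an unadjusted p under 0.05. Of the 640 genes that were higher in Csf1r-high tumours, 515 (80.5%) had a positive slope there, against 52.7% of all genes tested. Of the 166 that were lower, 54 (32.5%) had a negative slope, against 47.3% of all. Without KO 9 the first share was 51.4%, against 50.2% of all genes, and the second was 59.6%, against 49.8%, so both rest on that tumour. The slope was positive for 20 of 21 pan-macrophage genes, 10 of 10 MHC class II genes and 15 of 18 complement genes, and without KO 9 for 20, 9 and 13 of them. It was also positive for 11 of 11 natural killer and cytotoxic genes, 12 of 13 T cell genes and 10 of 10 skeletal muscle genes. Lists with mostly negative fold changes between the classes held positive slopes as well. These were 16 of 16 ribosomal protein, 14 of 17 oxidative phosphorylation, 11 of 16 hypoxia and 9 of 18 proliferation genes, against 52.7% of all genes. The proliferation count was 0 without KO 9, 2 without KO 5 and 16 without KO 3. The hypoxia count was 4 without KO 5 and 13 without KO 9. Ribosomal protein genes numbered 12 without KO 9, and oxidative phosphorylation genes 12 without KO 9 or KO 5 and 16 without KO 3. The slope was positive for 7 of 14 fibroblast and matrix genes, 3 of 11 adipocyte genes and 2 of 12 endothelial genes, and without KO 9 for 2, 0 and 0 of them. Other tumours moved these counts too. Without KO 8 the slope was positive for 13 fibroblast and matrix genes, 10 adipocyte genes and 5 endothelial genes. Without KO 3 it was positive for 5 of 10 MHC class II genes. The pan-macrophage count was 19 or 20 whichever tumour was left out. Galk1 had a slope of 1.23 log2 units per log2 unit of Csf1r in these tumours, the opposite sign to its fall between the classes.

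Over all 24 tumours, after centring within each label, the levels most like that of Csf1r were those of Nckap1l (Pearson r = 0.955), a subunit of the actin-regulating WAVE complex in blood cells, Nfam1 (0.942), an activating receptor of immune cells, and Dock2 (0.934), a Rac activator of leukocytes. Next came Inpp5d (0.927), Pld4 (0.927), a lysosomal nuclease of myeloid cells, Fermt3 (0.922), an integrin activator of blood cells, and H2-Aa (0.921). Adgre1 was eighth of 16935 genes (0.920), followed by Il10ra (0.915) and Themis2 (0.913), a signalling adaptor of macrophages and B cells. These correlations describe 24 libraries that differ in depth and cell make-up, among them the 16 of the comparison. Nckap1l had 39.8, 49.9 and 65.2 CPM in Csf1r-high tumours, against 17, 25.1 and 34.1 CPM in Csf1r-low tumours, without overlap (log2 fold change 0.97 ± 0.13, adjusted p = 0.00287). Cd68 had an r of 0.412 and Csf1 of 0.176.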

How the data were processed

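Whole tumours were measured by mRNA sequencing with a stranded kit, per the labels' protocols. The deposited counts are reads per gene, made by the authors with featureCounts 2.0.0 on RefSeq annotation of GRCm39, with no strand option and no option for multi-mapped reads in the command, per the file headers, so antisense and overlapping genes cannot be told apart. STAR and Subread are named in the submitters' processing notes without versions. Fold changes are log2 values from the edgeR fit with TMM scaling, computed here from the deposited counts. They are not ratios of the printed CPM, which is scaled to library totals.

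Of 46318 gene IDs, 44749 matched a RefSeq symbol and 16935 passed edgeR's filterByExpr, Csf1r not counted. Scaling was by TMM, and the test was that of edgeR 4.0.16 (glmQLFit and glmQLFTest in R 4.3.3), with Benjamini-Hochberg adjustment over all genes. The comparison of the classes had the title label as a block. Values within each label and the interaction came from a second fit of all 4 combinations of class and label. Errors of log2 fold changes are standard errors, the fold change over the square root of the F statistic. The 8 tumours in neither class had their own fit on log2 Csf1r. Chromosome levels used log2(CPM + 1) and an exact permutation test within labels over 4900 arrangements, which can give no p below 0.000408. The tests were tested on simulated counts. CPM in the text is over the library total, and for a gene without a read 3 reads of the total, 0.0789 to 0.160 CPM, is the level still allowed by counting error alone.

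The classes, gene lists and tests were chosen with earlier results of these data known. Genes were named by rule: the 12 largest changes in each direction among called genes averaging 5 CPM or more, 6 further genes each way by smallest p, from each list the 3 most abundant members and up to 3 called members, a panel of common markers, the smallest interaction p-values, the 10 genes most like Csf1r and the genes of the promoters shown. The text leaves out some of them, and a few are not reported here. Csf2rb2, Cd80, Havcr2 and Timd4 were named after their values were seen, because their lists had few calls. Alternatives were other scalings (RLE, upper quartile, library totals), other filters, DESeq2 1.42.0, limma 3.58.1 voom, no block, other class sizes, ranking by Adgre1, Cd68 or TMM-scaled Csf1r, a slope over all 24 tumours, fat and muscle scores as covariates, other thresholds and leaving out each tumour. Leaving out KO 11 and KO 12, chromosome offsets and the fibroblast and T cell scores were chosen after seeing the data. The authors' table of KO against WT was not used.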

Additional observations from a re-analysis of the deposited data

Results flagged for a closer look

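For 171 named genes and the levels of chromosomes 7 and 11, the 8 tumours of each class were examined for a tumour far from the other 7, by Dixon's ratio of the gap to its neighbour over the range of log2(CPM + 0.5). Of 346 groups, 45 had such a tumour, while chance gives about 1 in 20. KO 11 accounted for 22 of them. On the CPM scale there were 89, of which 50 were highest in KO 11. KO 11, a Csf1r-high tumour, was the highest of its class in Mrc1 at 159 CPM (next 88.4), Maf at 52.8 CPM (next 25.6), Ccr2 at 101 CPM (next 53.6), F13a1 at 200.2 CPM (next 102), Ly6c2 at 11.7 CPM (next 3.15), C3 at 553 CPM (next 214), Ccl8 at 109 CPM (next 61.8), Rgl1 at 40.9 CPM (next 26.3), Cd36 at 297 CPM (next 86.9), Nr1h3 at 25.8 CPM (next 10.6), Flt3 at 5.02 CPM (next 1.98), Clec9a at 3.82 CPM (next 1.53), Tpsb2 at 24.1 CPM (next 6.61), Thy1 at 88.9 CPM (next 44.1), Themis2 at 21.6 CPM (next 15.5), Timd4 at 37.3 CPM (next 3.19), Gsdmd at 16.2 CPM (next 8.21), H2-DMb1 at 46.3 CPM (next 36.3), Ccl11 at 18.9 CPM (next 8.89), Fap at 18.9 CPM (next 10.3) and Aldoa at 1862 CPM (next 1106). KO 7, a Csf1r-high tumour, was the highest of its class in C3ar1 at 48.3 CPM (next 35.6), Ccl2 at 20.9 CPM (next 7.16), Csn2 at 14732 CPM (next 7.22) and Csn1s1 at 15010 CPM (next 49.6). KO 11, a Csf1r-high tumour, was the lowest of its class in Itgax at 26.2 CPM (next 40.8). KO 7, a Csf1r-high tumour, was the lowest of its class in Cxcl9 at 2.46 CPM (next 7.12). WT 15, a Csf1r-high tumour, was the lowest of its class in Tigit at 0.237 CPM (next 0.469). WT 20, a Csf1r-high tumour, was the highest of its class in Rptn at 4.45 CPM (next 0.722). WT 23, a Csf1r-low tumour, was the lowest of its class in Csn3 at 3500.4 CPM (next 11108), Gsdmd at 1.71 CPM (next 3.21), H2-DMa at 11.3 CPM (next 14.4) and Lalba at 10.2 CPM (next 328). KO 12, a Csf1r-low tumour, was the highest of its class in S100a8 at 300.2 CPM (next 11.6), S100a14 at 237 CPM (next 40.0) and Eno1 at 1780 CPM (next 799). KO 2, a Csf1r-low tumour, was the highest of its class in Tpsb2 at 5.23 CPM (next 1.71), Trarg1 at 9.89 CPM (next 2.40) and Ccl6 at 123 CPM (next 61.7). KO 12, a Csf1r-low tumour, was the lowest of its class in Kit at 131 CPM (next 347) and Esr1 at 1.97 CPM (next 11.5). KO 6, a Csf1r-low tumour, was the highest of its class in C3ar1 at 28.9 CPM (next 21) and Lamp1 at 697 CPM (next 596). WT 23, a Csf1r-low tumour, was the highest of its class in Top2a at 416 CPM (next 245) and Eme1 at 14.5 CPM (next 6.92). In KO 11 the genes at the top mark monocytes and macrophages, dendritic cells, mast cells, fibroblasts and fat, whereas Itgax, the integrin CD11c, was lowest there. The milk genes Csn2 and Csn1s1 set KO 7 apart, and S100a8, Esr1 and S100a14 set KO 12 apart.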

How the results depend on the processing

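Of 806 calls, 253 were kept in all 16 fits without 1 tumour, 232 higher and 21 lower, and 252 of them also with DESeq2, voom and the 3 other scalings. The count stayed within 1.5 times with RLE, upper-quartile and total scaling, the stricter filter, voom, no block, TMM-scaled Csf1r and chromosome offsets (622 to 839). It was 523 without a filter, 1720 with DESeq2, 208 and 469 with 3 and 6 tumours per class and label, 455 and 2 with ranking by Adgre1 and Cd68, 4497 with a slope over all 24 tumours (1774 rising and 2723 falling with Csf1r), 89 and 1694 at adjusted p under 0.01 and 0.1, 379 without KO 11 and KO 12, and 0 with the adipocyte and muscle, the fibroblast or the T cell scores as covariates (1717, 1377 and 1711 at an unadjusted p under 0.05). DESeq2 called 1151 higher and 569 lower. Without 1 tumour the count ran from 261 (without WT 20) to 1059 (without KO 7). Within KO it was 0 with library totals, 34 without a filter, 655 with DESeq2, 2 with voom and 0 to 209 without 1 tumour of either label. Within WT it was 312 with DESeq2 and 0 to 61 without 1 tumour of either label. The interaction gave 12 with DESeq2. In the tumours of neither class, rises with a positive slope numbered 329 (without KO 9) to 566 (without KO 5), and falls with a negative slope 41 (without KO 3) to 99 (without KO 9), when 1 tumour was left out. Some log2 fold changes turned sign. Ranking by Cd68 gave Col1a1 -0.17, Sparc -0.038, Trp63 -0.16, Postn -0.049, Car9 0.046, Adm 0.34, Bex1 0.52, S100a14 0.87, Aqp9 0.085 and Phgdh 0.22. The adipocyte and muscle scores gave Car3 -0.074 and Retn -0.19. The fibroblast score gave Ccr2 -0.054, Col1a1 -0.15, Col3a1 -0.070 and Adm 0.18. Csn1s1 ran from -3.47 (without KO 7) to 0.65 without 1 tumour. The cause was not tested for any of these. Of the named genes' values under the alternatives, 4647 kept direction and call, 1211 lost the call and 54 gained it. Named genes whose call was lost in some of the 16 fits without 1 tumour, with the number of fits that kept it, were Aqp9, Cd28, Trp63 (2), Havcr2, Lyz2, Pou2af1, Sox11, Tbx21 (3), Atp2a1, Lep, Ttn (4), Adm, Cpa3, Cyp27a1, Eomes, Scd1, Timd4 (5), Abca1, Ccr2, Mcpt4, S100a14 (6), Car9, Cd2, Fabp4, Tpsb2 (7), Bex1, Ccl21a, Cd3d, Gsdmd, Il1r1, Nr1h2 (9), C3 (12), Cd80, Cspg4, Eme1, Tigit (13), Dcn, Krt23, Ly6c2 (14), Apoe, B4galnt4, Csf2rb2 (15). Genes below about 1 CPM rest on few reads per tumour. No paired analysis was possible because the labels give the KO and WT libraries no shared replicate numbers and both classes hold tumours of both labels.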
